A study of Nannospalax ehrenbergi and Mus musculus with 14 samples.

Results

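The let-7 family and miR-98 were examined in small RNA libraries of the blind mole rat *Spalax* and of mice that had received 3-methylcholanthrene (3MCA), a chemical carcinogen. The members are the 9 rows named let-7a-5p, let-7b-5p, let-7c-5p, let-7d-5p, let-7e-5p, let-7f-5p, let-7g-5p, let-7i-5p and miR-98-5p, out of the 1326 microRNA names that the table of each species holds, and they were chosen by name. All 9 were present in all 14 libraries and passed the filter on low values in both species. Each animal was injected once under the skin of the neck, *Spalax* with 1 mg of 3MCA in 500 µl and C57BL/6 mice with 200 µg in 200 µl. The injected side (IS), where the growth formed, and the uninjected side (UIS) of the same animal were both sequenced. No animal in the small RNA set was untreated, so the UIS is tissue of an animal that carried a growth and had been given the carcinogen.

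Granuloma, a benign inflammatory growth, was sampled in spalax_600 and spalax_976, both female, at 14 and 16 months after the injection. Fibrosarcoma, a malignant tumor of connective tissue, was sampled in spalax_2240, a female, at 18 months and in spalax_2230, a male, at 30 months. The *Spalax* were caught in the wild, with ages estimated from about 2 to 10 years or older. Fibrosarcomas of the male mice mouse_512, mouse_1023 and mouse_1019, which were 3 to 4 months old, were sampled at 11, 12 and 14 weeks. A mouse UIS library whose column in the table carries a number that no label gives was used as a further UIS replicate and was not paired. Each library held between 2034574 and 13982842 reads on microRNAs. Each value is a read count over the size factor of its library and is called a normalized count here.

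The let-7 microRNAs were first known as regulators of developmental timing in worms. In mammals they accumulate in differentiated tissue, where they repress messages of growth genes such as RAS, MYC and HMGA2. The LIN28 proteins bind let-7 precursors and block their maturation. A microRNA finds its targets mainly through the seed, its bases 2 to 8, so members that share a seed can share targets.

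To show how alike the members are, the mouse sequences were read from the hairpins of GENCODE M21 (GRCm38), each as the 22 bases that begin 1 base before the seed. The letters are DNA letters, 5′ to 3′, with the seed in capitals.
let-7a: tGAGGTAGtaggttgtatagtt
let-7b: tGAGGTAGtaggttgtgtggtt
let-7c: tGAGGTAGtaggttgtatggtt
let-7d: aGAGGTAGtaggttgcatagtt
let-7e: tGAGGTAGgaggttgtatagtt
let-7f: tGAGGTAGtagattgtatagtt
let-7g: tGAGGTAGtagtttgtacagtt
let-7i: tGAGGTAGtagtttgtgctgtt
miR-98: tGAGGTAGtaagttgtattgtt

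All 9 held the seed GAGGTAG, but each stretch was located by these letters, so their match over the seed was set in advance. The same letters occurred in 21 of the 2202 annotated mouse microRNA hairpins (0.954%), among them all 12 hairpins of let-7 and miR-98. Counted from 1 at the 5′ end, let-7c differed from let-7a by A19G, let-7e by T9G and let-7f by G12A, 1 base each. let-7b differed from let-7a by A17G and A19G, let-7g by G12T and T18C, miR-98 by G11A and A19T, and let-7d by T1A and T16C. let-7i, with G12T, A17G, T18C and A19T, was the farthest from let-7a. The *Spalax* reads carry the same mouse names, and how reads that match more than 1 of these sequences were shared out is not given in the sources used here, so the levels of members that differ by 1 base are uncertain against each other.

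The hairpins lie at 8 places in the mouse genome (GRCm38). Mirlet7a-1 (chr13:48538179-48538272), Mirlet7f-1 (chr13:48537829-48537917) and Mirlet7d (chr13:48536012-48536114) lie on the minus strand in exons of the long noncoding RNA 6720427I07Rik. Mirlet7c-2 (chr15:85706603-85706697) and Mirlet7b (chr15:85707319-85707403) lie in exons of the noncoding RNA Lncppara. Mirlet7f-2 (chrX:151912346-151912428) and Mir98 (chrX:151913214-151913321) lie in an intron of Huwe1, which encodes a ubiquitin ligase. Mirlet7g (chr9:106178840-106178927) lies in an intron of Wdr82, and Mirlet7i (chr10:122985640-122985724), on the minus strand, in an exon of the pseudogene D630033A02Rik. The remaining hairpins lie beside members of the miR-99/100 and miR-125 families. They are Mirlet7a-2 (chr9:41536716-41536811), 5211 bases from Mir100, Mirlet7c-1 (chr16:77599657-77599750), 656 bases from Mir99a and in an intron of Mir99ahg, and Mirlet7e (chr17:17830352-17830444), 94 bases from Mir99b and in an intron of Spaca6. Since let-7a, let-7c and let-7f each come from 2 hairpins with the same mature sequence, their reads cannot be assigned to 1 place.

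The composition of the tissue differed greatly between the sides. A list of skeletal muscle microRNAs took 27.7% to 37.3% of the reads of every UIS library and 0.00959% to 3.95% of those at the IS. MicroRNAs of fibroblasts took 0.231% to 1.00% at the UIS and 3.02% to 11.1% at the IS, and those of leukocytes 0.0597% to 0.102% and 0.323% to 2.30%. Red cell microRNAs took 14.3% to 35.5% of the mouse UIS reads and 1.08% to 6.41% of the mouse IS reads. Their part in the changes given here was not tested, and fewer cells of a type and less microRNA per cell cannot be told apart in such samples.

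These shares also make the direction of a change depend on how libraries are scaled, which is shown first for the summed family. By the authors' size factors the 9 members summed to 924438 and 772412 normalized counts at the UIS of granuloma-bearing spalax_600 and spalax_976, and to 625261 and 656577 at the IS. In spalax_2240 and spalax_2230 the sum was 804981 and 965027 at the UIS and 419589 and 605603 in the fibrosarcoma. In mouse_512 and mouse_1023 and the unpaired library it was 1117780, 991097 and 1233740 at the UIS, against 430436, 335336 and 543071 in the fibrosarcomas of mouse_512, mouse_1023 and mouse_1019. The sum was thus lower at the IS in 6 of 6 pairs, and the sides did not overlap in any of the 3 conditions.

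As a share of all microRNA reads, the order of the sides was the opposite. The family took 5.64% and 4.91% of the reads at the UIS of spalax_600 and spalax_976 and 14.0% and 14.7% in their granulomas. It took 5.73% and 6.81% at the UIS of spalax_2240 and spalax_2230 and 9.50% and 13.9% in their fibrosarcomas. In the mice the UIS shares were 4.16%, 5.36% and 7.94% and the IS shares 11.2%, 8.21% and 15.6%. With the muscle microRNAs left out of the total, the share remained higher at the IS within each of the 6 pairs, by the least in spalax_2240 (9.03% against 9.51%) and mouse_1023 (7.52% against 8.43%). Whether the family as a whole was lower or higher at the IS therefore rests on the scale, and the rest of the text gives changes by the authors' factors beside the median of all microRNAs tested.

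**Figure D1:**
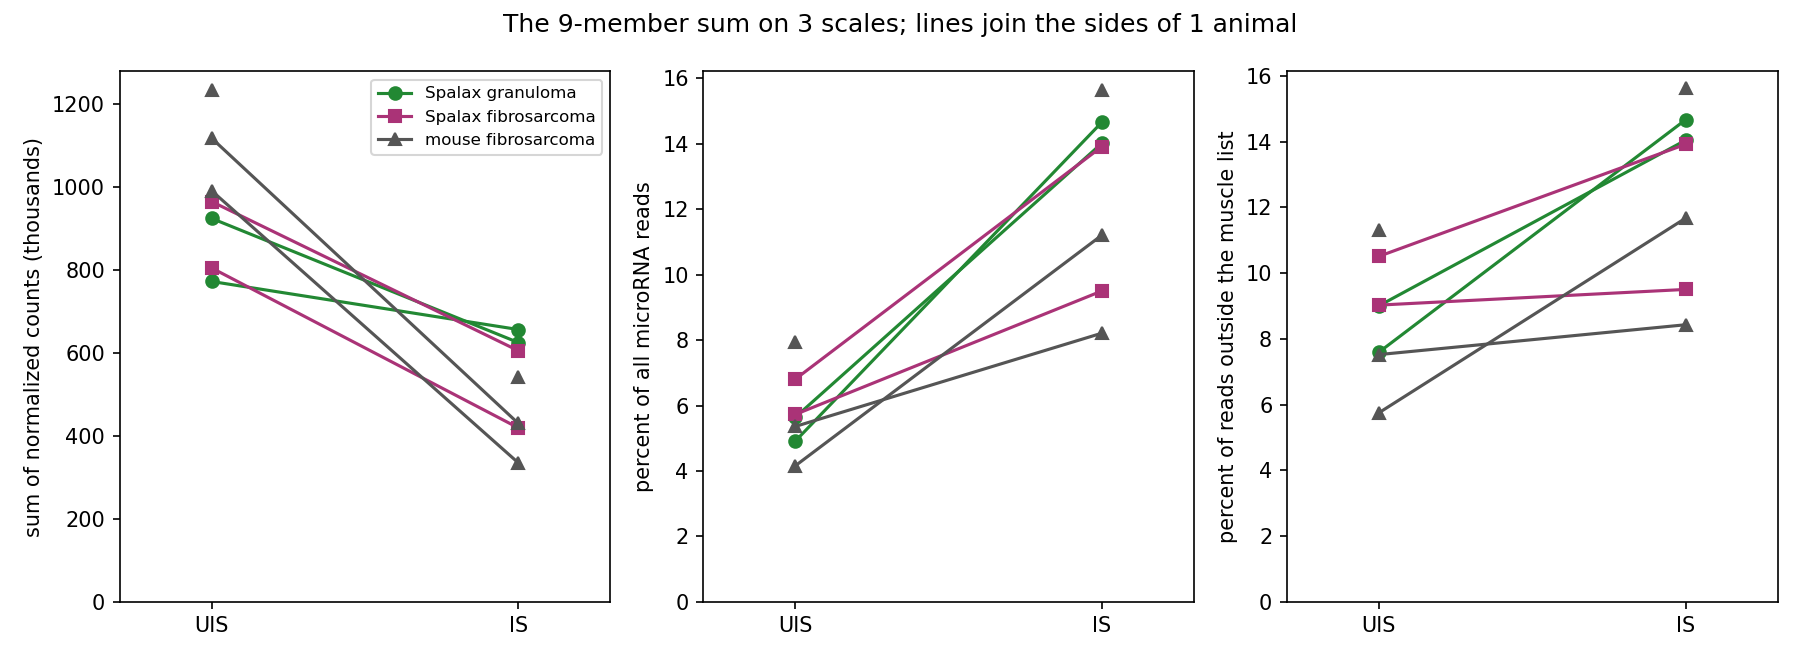
Sum of the 9 members at the UIS and IS, as normalized counts (left, in units of 1000), as a percent of all microRNA reads (middle) and as a percent of the reads outside the muscle list (right), with a point for each library and lines that join the sides of 1 animal. Points with no line are the mouse libraries that could not be paired. The lines of 6 of 6 pairs go down on the left and up in the other panels.

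The make-up of the family, in contrast, does not depend on any factor, since each member was divided by the 9-member sum of its own library. let-7f held the largest share in 11 of the 14 libraries, and let-7c held it in the other 3, which were IS libraries of spalax_600, spalax_2230 and mouse_1023. The shares moved between members at the IS. let-7d, let-7f and let-7g had a lower share at the IS in 6 of 6 pairs, and let-7c and let-7e a higher share in 6 of 6. let-7b and let-7i had a higher share in 5 of 6 pairs, and let-7a and miR-98 in 3 of 6. These counts are given as a description, with no test.

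let-7g, from its single hairpin in Wdr82, had a lower share in the growths of all 4 *Spalax*. It held 8.11% and 8.04% of the family at the UIS of spalax_600 and spalax_976 and 2.30% and 2.77% in their granulomas. The shares were 5.78% and 7.31% at the UIS of spalax_2240 and spalax_2230 and 3.58% and 3.53% in the fibrosarcomas. In mice it held 3.37%, 4.57% and 3.78% at the UIS and 2.60%, 4.09% and 3.13% at the IS, so there the sides overlapped.

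let-7e, the member with a changed base at position 9, went the other way. It held 0.481% and 0.424% of the family at the UIS of spalax_600 and spalax_976 and 1.02% and 1.03% in granuloma. It held 0.574% and 0.540% at the UIS of spalax_2240 and spalax_2230 and 0.928% and 0.713% in fibrosarcoma, and 0.586%, 0.507% and 0.679% at the mouse UIS against 1.03%, 1.14% and 1.20% at the mouse IS. Its IS and UIS shares did not overlap in any of the 3 conditions.

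let-7c and let-7f exchanged much larger parts of the family. let-7f held 49.7% and 45.2% at the UIS of spalax_600 and spalax_976 and 30.0% and 37.2% in granuloma, while let-7c went from 13.9% and 16.4% to 30.5% and 24.3%. In spalax_2240 let-7f held 45.9% at the UIS and 39.3% in the tumor, with let-7c at 15.4% and 18.8%. In spalax_2230 the gap was wider, with let-7f at 45.2% and 22.6% and let-7c at 15.4% and 34.1%. The mouse UIS libraries held 43.5% to 45.6% let-7f and 15.8% to 17.4% let-7c. The mouse tumors spread from 24.2% let-7f and 27.3% let-7c in mouse_1023 to 44.0% and 15.5% in mouse_1019, whose tumor was close to the UIS in both members. let-7i held 8.39% and 9.82% at the UIS of spalax_600 and spalax_976 and 15.2% and 9.18% in granuloma. It held 12.3% and 9.63% at the UIS of spalax_2240 and spalax_2230 and 12.9% and 25.7% in fibrosarcoma. In mice it held 6.95% to 10.2% at the UIS and 12.8% to 20.6% at the IS. let-7a went from 14.3% and 14.8% to 16.4% and 21.7% in granuloma and from 15.4% and 17.0% to 19.3% and 8.21% in fibrosarcoma. let-7d held 1.42% to 1.73% at the *Spalax* UIS and 0.674% to 1.02% at the *Spalax* IS, and 3.17% to 3.33% at the mouse UIS against 1.48% to 2.42% at the mouse IS. For let-7d, too, the sides did not overlap in either species.

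**Figure D2:**
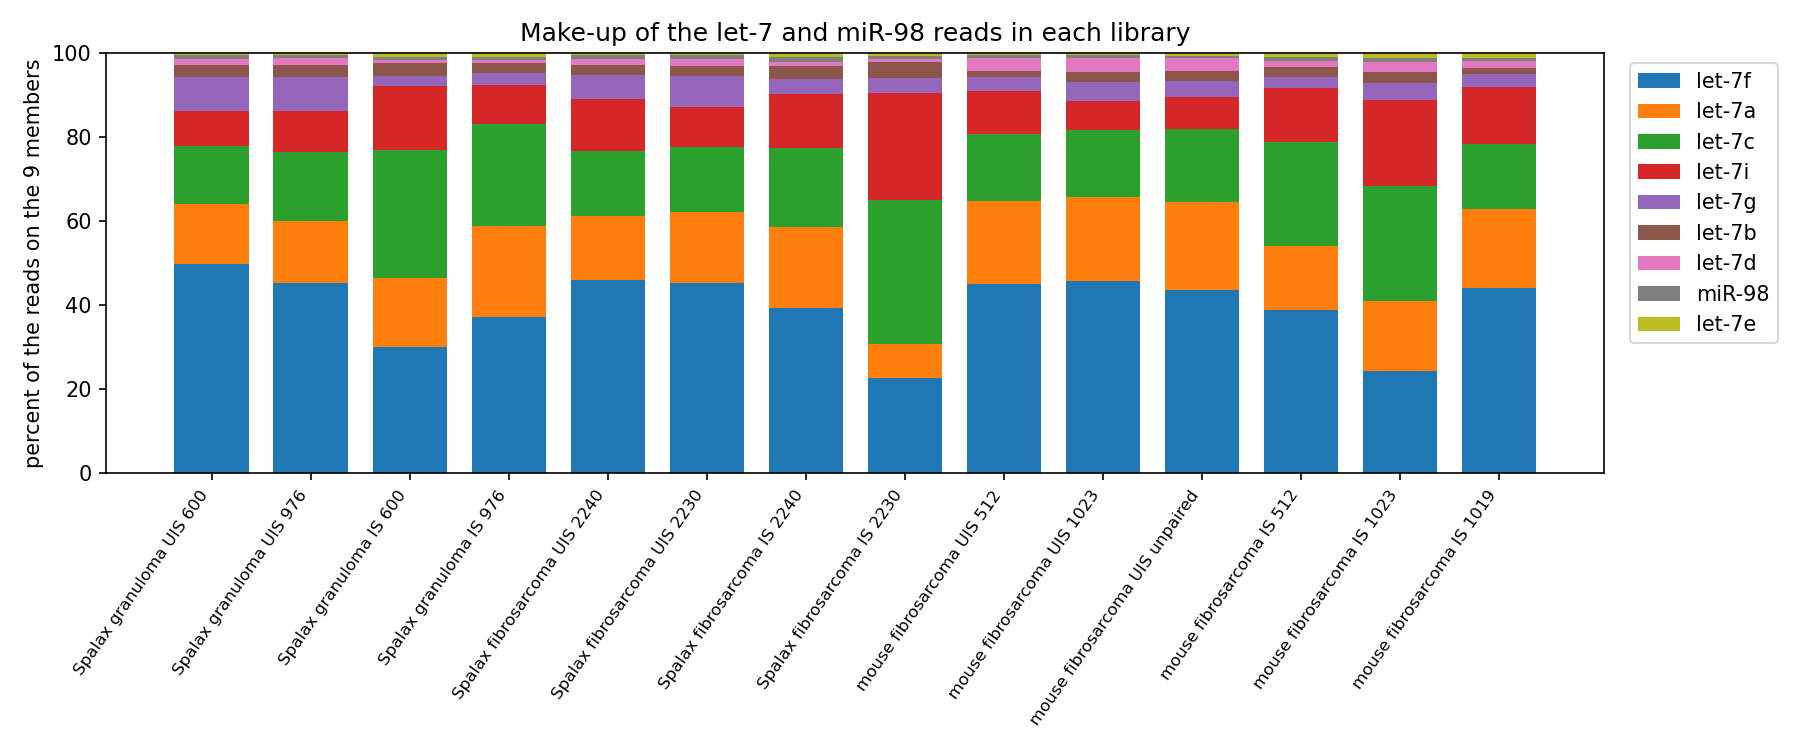
Percent of the reads on the 9 members taken by each member, with a stacked bar that adds to 100 for each of the 14 libraries. let-7f takes 43.5% to 49.7% of each UIS bar and 22.6% to 44.0% of each IS bar, and the let-7c part is larger in most IS bars.

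The UIS libraries of *Spalax* placed the members in nearly the same order. let-7f was highest, with 349272 to 459225 normalized counts. let-7a (114476 to 163868) and let-7c (123992 to 149087) followed, and their ranges overlapped. let-7i (75888 to 99192) lay below both and just above let-7g (46532 to 74978). let-7b ranged from 19809 to 25469, let-7d from 11426 to 16704, miR-98 from 5983 to 8107 and let-7e from 3272 to 5214. In granuloma let-7e, at 6364 and 6771, lay above let-7d, at 4216 and 5270, and above miR-98, at 4643 and 3566. At the mouse UIS let-7d (33026 to 39084) lay above let-7b (16071 to 27397), with let-7g (37696 to 46687) overlapping let-7d. let-7e (5028 to 8379) and miR-98 (5459 to 7343) overlapped there, with let-7e the higher in 2 of the 3 libraries. Levels were not compared between species, because the mouse values used here were scaled apart and the *Spalax* reads were named by mouse sequences.

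**Figure D3:**
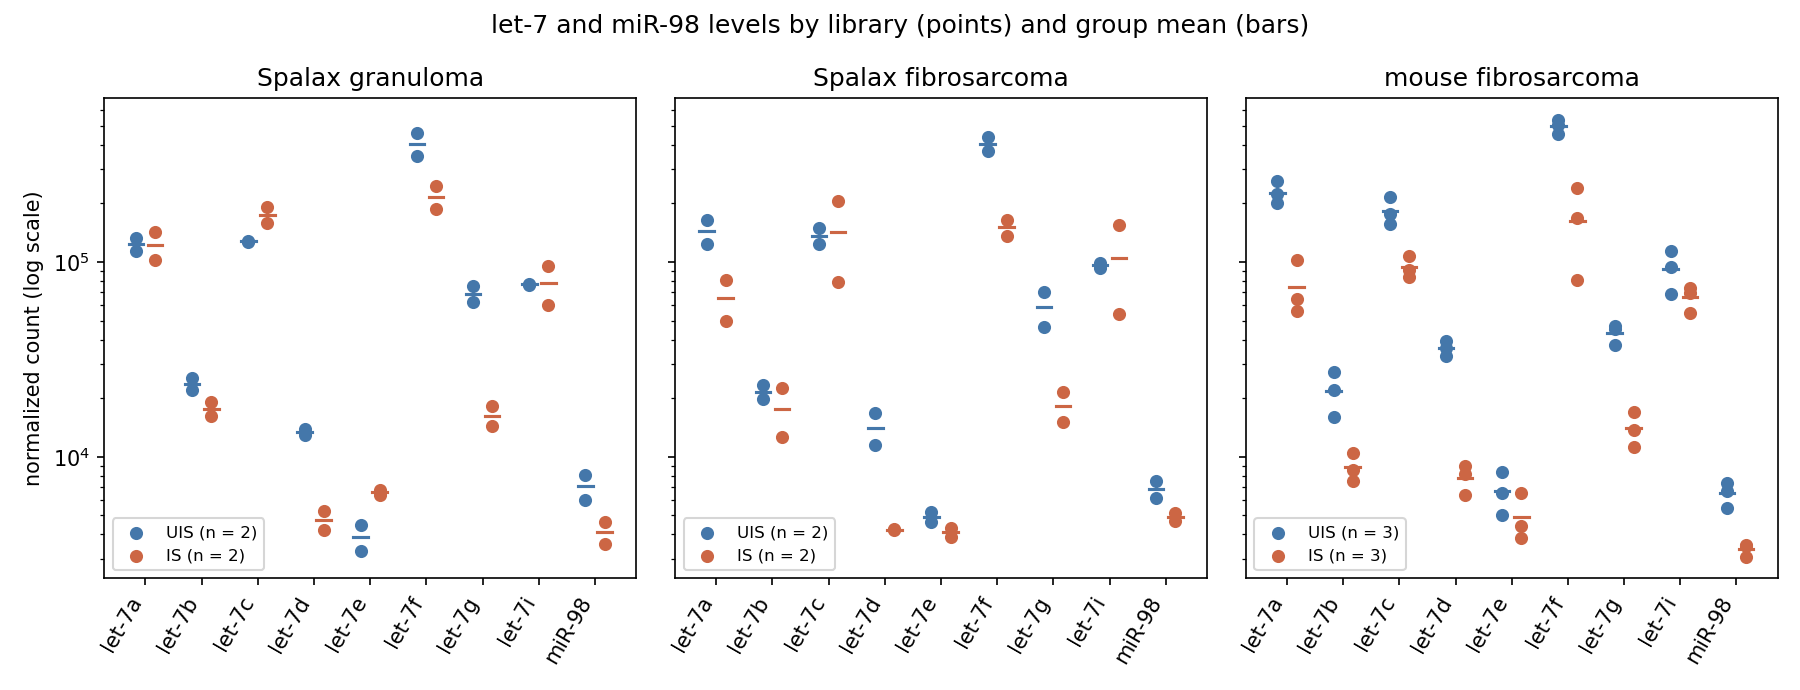
Normalized counts, on a log axis, of each member at the UIS (blue) and IS (orange) of *Spalax* with granuloma (2 libraries a side), *Spalax* with fibrosarcoma (2 a side) and mice with fibrosarcoma (3 a side), with a point for each library and a bar at the group mean. let-7d, let-7f, let-7g and miR-98 lie lower at the IS in all 3 panels without overlap. In granuloma let-7c and let-7e lie higher at the IS without overlap. The share of all microRNAs whose sides separate in this way was not counted.

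The changes between sides were tested with limma on log2(normalized count + 1) across all microRNAs that passed the filter, 447 in *Spalax* and 547 in mice, so a fold change is on that scale. By the authors' factors the median change of all microRNAs was 0.13 on the log2 scale in granuloma, -0.23 in *Spalax* fibrosarcoma and 0.21 in mice. Scaling to the read totals moved these medians to 1.90, 1.40 and 2.58, and scaling to the reads outside the muscle list to 1.27, 0.78 and 2.12.

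In granuloma, 3 of the 9 members fell at the IS by the authors' factors, namely let-7d, let-7f and let-7g, and none rose. Over all microRNAs tested, 48.3% passed the threshold and 22.8% passed it with a fall. The median change was -0.43 over the members and 0.13 over all microRNAs. Scaled to the read totals, 7 members rose and none fell, against 253 of all 447 microRNAs rising and 50 falling. Scaled to the reads outside the muscle list 3 rose, against 208 of 447. Relative to the median of all microRNAs, 7 members lay below and 2, let-7c and let-7e, above it under each of the 3 scalings.

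let-7g had the largest fall of the family in granuloma. Its normalized count was 74978 and 62125 at the UIS of spalax_600 and spalax_976 and 14366 and 18202 at the IS. Both IS values were below both UIS values, and the change of -2.08 (SE 0.35, 4.22-fold lower, limma adjusted p = 0.00297) was -2.20 when taken relative to the median change of all microRNAs. let-7d stood at 13954 and 12960 at the UIS and 4216 and 5270 at the IS. Its sides did not overlap either, and the change was -1.51 (SE 0.34, adjusted p = 0.00962). let-7f stood at 459225 and 349272 at the UIS and 187915 and 244171 at the IS, without overlap, a change of -0.90 (SE 0.28, adjusted p = 0.0292). With the animal as a block the call of let-7f was lost (adjusted p = 0.0829) and those of let-7d and let-7g held. The call of let-7f was also lost in edgeR (0.0770), in DESeq2 (0.0952) and without the filter (0.0606). Without the IS or without the UIS library of spalax_600, let-7g alone was called, with let-7d at an adjusted p of 0.0533 and 0.0597 and let-7f at 0.159 and 0.183. Without the UIS library of spalax_976 the call of let-7f alone was lost (adjusted p = 0.0705). By read totals let-7d had a change of 0.33 and let-7g of -0.23, and neither passed the test.

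The other members did not pass in granuloma. let-7e stood at 4445 and 3272 at the UIS and at 6364 and 6771 at the IS. Both IS values lay above both UIS values, with a change of 0.78 (SE 0.33, adjusted p = 0.0899). let-7c was also higher in both granulomas, at 190998 and 159353 against 128396 and 126483, with a change of 0.45 (SE 0.44, adjusted p = 0.422). miR-98 was at 8107 and 5983 at the UIS and 4643 and 3566 at the IS (-0.78, SE 0.35, adjusted p = 0.103). The changes of let-7a, let-7b and let-7i were -0.024, -0.43 and -0.020, each with a 95% interval that held 0.

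In *Spalax* fibrosarcoma, 4 of the 9 members fell at the IS by the authors' factors, namely let-7a, let-7d, let-7f and let-7g, and none rose. Of all microRNAs tested, 37.4% passed and 22.1% passed with a fall. The member median was -0.47, against -0.23 over all microRNAs. By read totals 5 members rose and none fell, against 193 of all 447 microRNAs rising and 41 falling. Outside the muscle list none of the 9 passed in limma, against 45.2% of all microRNAs, with 1 member at an unadjusted p under 0.05. The libraries used here are not those of the granuloma comparison, but all 8 share an estimate of the spread.

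let-7d was at 11426 and 16704 at the UIS of spalax_2240 and spalax_2230 and at 4259 and 4192 in the tumors, a change of -1.71 (SE 0.34, adjusted p = 0.00740). let-7g was at 46532 and 70506 at the UIS and at 15015 and 21403 in the tumors, a change of -1.68 (SE 0.35, adjusted p = 0.00909). For both, each tumor value lay below each UIS value. let-7f was at 369563 and 435883 at the UIS and at 165053 and 136770 in the tumors (-1.42, SE 0.28, adjusted p = 0.00682), also without overlap. let-7a was at 123682 and 163868 at the UIS and at 80995 and 49712 in the tumors (-1.17, SE 0.34, adjusted p = 0.0324). The call of let-7a was lost with the animal as a block (adjusted p = 0.0677), without the UIS library of spalax_2240 (0.0838) and without the IS library of spalax_2230 (0.104). It was also lost in DESeq2 (0.0681), without the filter (0.0566) and with only the libraries compared (0.0903). Without the UIS library of spalax_2230 none of the 9 passed in limma, with 3 at an unadjusted p under 0.05 and adjusted p-values of 0.0601 for let-7f, 0.0637 for let-7d and 0.0757 for let-7g.

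The tumors of spalax_2240 and spalax_2230 differed most in let-7c and let-7i. let-7c went from 123992 to 78699 in spalax_2240 and from 149087 to 206645 in spalax_2230. let-7i went from 99192 to 53927 in spalax_2240 and from 92971 to 155414 in spalax_2230. Both members thus lay lower in 1 tumor and higher in the other, and the group changes were -0.092 (SE 0.44) and -0.069 (SE 0.49). let-7b, let-7e and miR-98 did not pass, with changes of -0.35, -0.26 and -0.47.

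In mouse fibrosarcoma, 7 of the 9 members fell at the IS by the authors' factors and the others, let-7e and let-7i, did not pass. Among all microRNAs tested 57.8% passed, and 25.6% passed with a fall. The member median was -1.29 against 0.21 over all microRNAs, and all 9 lay below that median under each of the 3 scalings. By read totals 4 members rose and none fell, against 373 of all 547 microRNAs rising and 31 falling. Outside the muscle list 2 rose, against 329 of 547. With the animal as a block, which leaves 2 mouse pairs to carry the comparison, 4 fell, namely let-7a, let-7d, let-7f and let-7g.

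let-7d had the largest fall in the mice. It was at 35987, 33026 and 39084 at the UIS and at 6363, 8111 and 9000 in the tumors, a change of -2.21 (SE 0.27, 4.64-fold lower, adjusted p = 0.00137). let-7f was at 502938, 452119 and 536974 at the UIS and at 167438, 81224 and 238975 in the tumors (-1.74, SE 0.41, adjusted p = 0.0110). let-7a went from 222377, 200042 and 259310 to 64938, 56064 and 102751 (-1.65, SE 0.31, adjusted p = 0.00531). In each of these the highest tumor lay below the lowest UIS library, and let-7f varied the most between tumors, with mouse_1023 lowest and mouse_1019 highest.

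let-7g was at 37696, 45322 and 46687 at the mouse UIS and at 11211, 13723 and 16987 in the tumors (-1.64, SE 0.28, adjusted p = 0.00375). let-7b changed by -1.29 (SE 0.31, adjusted p = 0.0131), let-7c by -0.95 (SE 0.25, adjusted p = 0.0169) and miR-98 by -0.94 (SE 0.28, adjusted p = 0.0256). The last of these calls were the least firm, since with the animal as a block let-7b, let-7c and miR-98 had adjusted p-values of 0.0946, 0.0717 and 0.138. Leaving out the UIS library of mouse_1023 ended the calls of let-7b and miR-98 (adjusted p = 0.0515 and 0.103), and leaving out its IS library (0.0568 and 0.0842) or the unpaired UIS library (0.0597 and 0.0806) ended those of let-7c and miR-98. Without the filter let-7c and miR-98 were lost too (0.0523 and 0.0584), and in edgeR miR-98 was (0.0531). let-7e was at 6545, 5028 and 8379 at the UIS and at 4433, 3833 and 6536 in the tumors, with overlap (-0.44, SE 0.35, adjusted p = 0.306). let-7i, at 114025, 68879 and 94367 against 55018, 69238 and 73786, overlapped as well (-0.47, SE 0.29, adjusted p = 0.204).

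**Figure D4:**
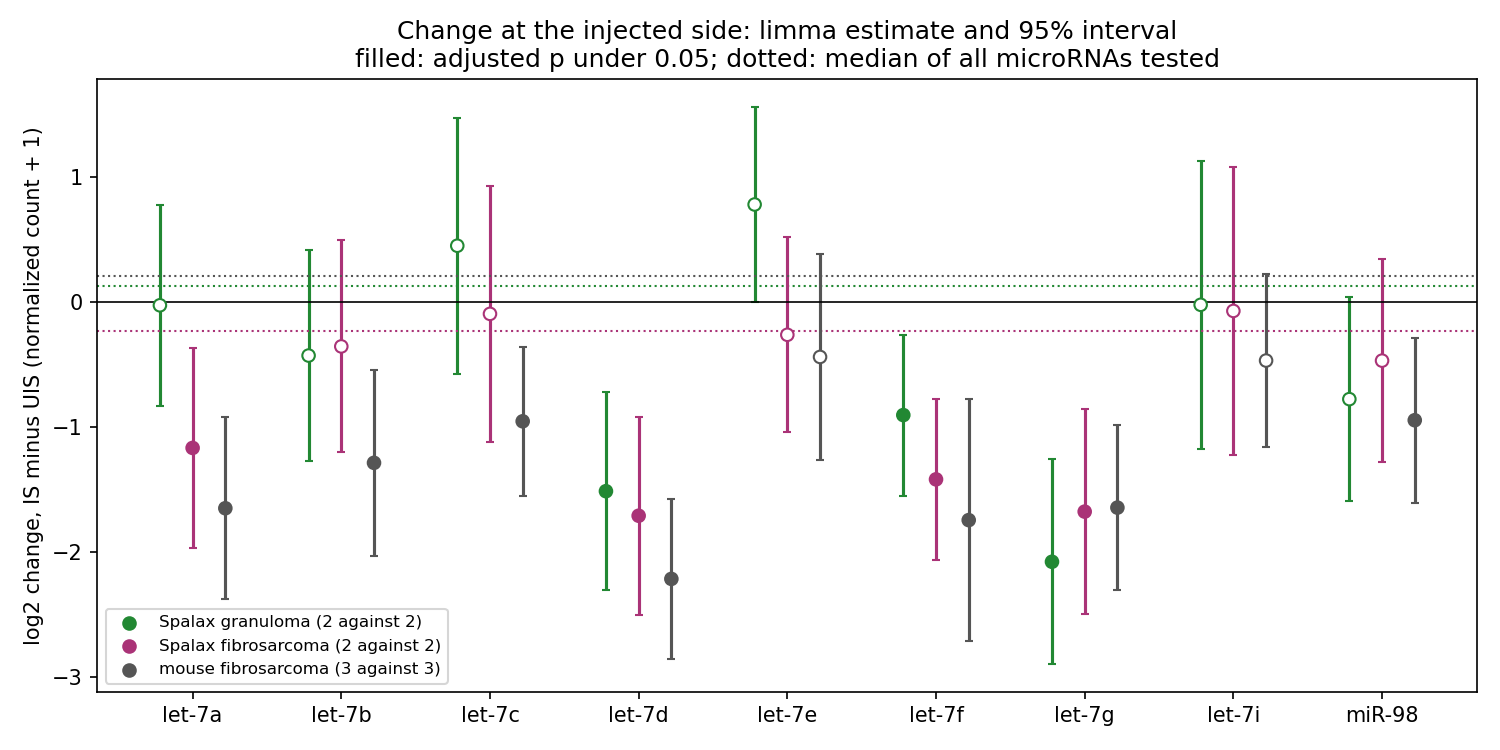
Change of each member from UIS to IS on the log2(normalized count + 1) scale, with the limma estimate and its 95% interval for *Spalax* granuloma (2 against 2 libraries), *Spalax* fibrosarcoma (2 against 2) and mouse fibrosarcoma (3 against 3). Filled points passed an adjusted p of 0.05 and dotted lines mark the median of all microRNAs tested. let-7d, let-7f and let-7g are filled and below 0 in all 3 comparisons by the authors' factors, and scaling to the read totals would move each comparison's points up together.

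Whether the change differed between granuloma and fibrosarcoma of *Spalax* was tested directly, as the difference of the changes. None of the 9 members passed in limma, edgeR or DESeq2, against 3.80% of all microRNAs tested in limma. At an unadjusted p under 0.05 limma had 1 member, edgeR 1 and DESeq2 0. That member was let-7a in limma, whose change was 1.14 higher in granuloma (SE 0.49, 95% interval 0.01 to 2.28, adjusted p = 0.233). let-7e followed, 1.04 higher in granuloma (SE 0.47, interval -0.06 to 2.15, adjusted p = 0.261). For let-7g, whose change was 0.40 lower in granuloma, the interval was -1.56 to 0.76. A change from 1.56 lower to 0.76 higher in granuloma is thus not excluded by these libraries.

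The same side was also compared between the tumor types. At the UIS, none of the 9 members differed between granuloma-bearing and fibrosarcoma-bearing *Spalax* in limma, edgeR or DESeq2, with 0 at an unadjusted p under 0.05 in each, and 0.00% of all microRNAs passed. The widest gap at the UIS was that of let-7e, with a difference of -0.36 (SE 0.33), lower in granuloma-bearing animals. At the IS, none of the 9 passed in limma, edgeR or DESeq2 against 18.8% of all microRNAs in limma, with 1 member at an unadjusted p under 0.05 in limma and in edgeR and 0 in DESeq2. The IS values of let-7a were 102666 and 142780 in granuloma and 80995 and 49712 in fibrosarcoma, without overlap, a difference of 0.93 (SE 0.34, adjusted p = 0.114). It passed without the fibrosarcoma of spalax_2240 (1.28, adjusted p = 0.0411), and let-7c passed without that of spalax_2230 (1.15, adjusted p = 0.0384). These comparisons share their libraries with the changes given above.

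The passenger arms, the opposite strands of the same hairpins, were far less abundant. Of the 12 arms named let-7*-3p or miR-98-3p, all 12 were tested in *Spalax* and 11 in mice. In granuloma 1 rose and 1 fell, in *Spalax* fibrosarcoma none passed in limma, edgeR or DESeq2, and in mice 1 fell, all by the authors' factors. Over all microRNAs tested in limma, 48.3%, 37.4% and 57.8% passed. By read totals 8, 7 and 11 arms rose and none fell, against 253 of 447, 193 of 447 and 373 of 547 microRNAs rising. Outside the muscle list 5, 3 and 6 arms rose, against 208, 144 and 329 of all. The median change of the arms by the authors' factors was 0.060, -0.059 and -0.36, against 0.13, -0.23 and 0.21 over all microRNAs. The arms let-7a-1-3p and let-7c-2-3p had the same value in every library, so those names cannot be told apart. They enter the counts of arms as 2 although they hold 1 measurement.

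let-7d-3p, the arm opposite let-7d-5p, was lower at the IS with its partner by the authors' factors. It was at 2126 and 2019 normalized counts at the UIS of spalax_600 and spalax_976 and at 964 and 761 in granuloma, a change of -1.27 (SE 0.38, adjusted p = 0.0271). In mice it was at 4916, 4786 and 4975 at the UIS and at 1670, 2438 and 2409 in the tumors (-1.19, SE 0.30, adjusted p = 0.0140). With the animal as a block neither call held (adjusted p = 0.0581 in granuloma and 0.0746 in mice). In *Spalax* fibrosarcoma the change was -0.87 (SE 0.38) and did not pass. On the scale of read totals the let-7d-3p change was 0.57, 0.82 and 1.19 in granuloma, *Spalax* fibrosarcoma and mice, of which only the mouse change passed (adjusted p = 0.0290). let-7g-3p, at 20.3 to 52.2 normalized counts, did not pass in any comparison by the authors' factors, and by read totals it rose in *Spalax* fibrosarcoma (1.62, adjusted p = 0.0254) and in mice (1.95, adjusted p = 0.0199).

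let-7a-2-3p, which can come only from the let-7a hairpin beside Mir100, was close to absent at the UIS of granuloma-bearing *Spalax*, with 0 and 1 reads, and had 21 and 14 reads in their granulomas. Per size factor this is a ratio of 32.8, with an exact counting interval of 5.52 to 1334, and it passed in limma (adjusted p = 0.00652). That result is not independent support for a rise. In *Spalax* the arm reached the filter value of 10 only in IS libraries (26.2, 17.7 and 19.5 normalized counts). Its *Spalax* UIS values were at most 4.31, so the filter favored a rise in advance. In *Spalax* fibrosarcoma the arm did not pass, and in mice it stayed below the filter.

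**Figure D5:**
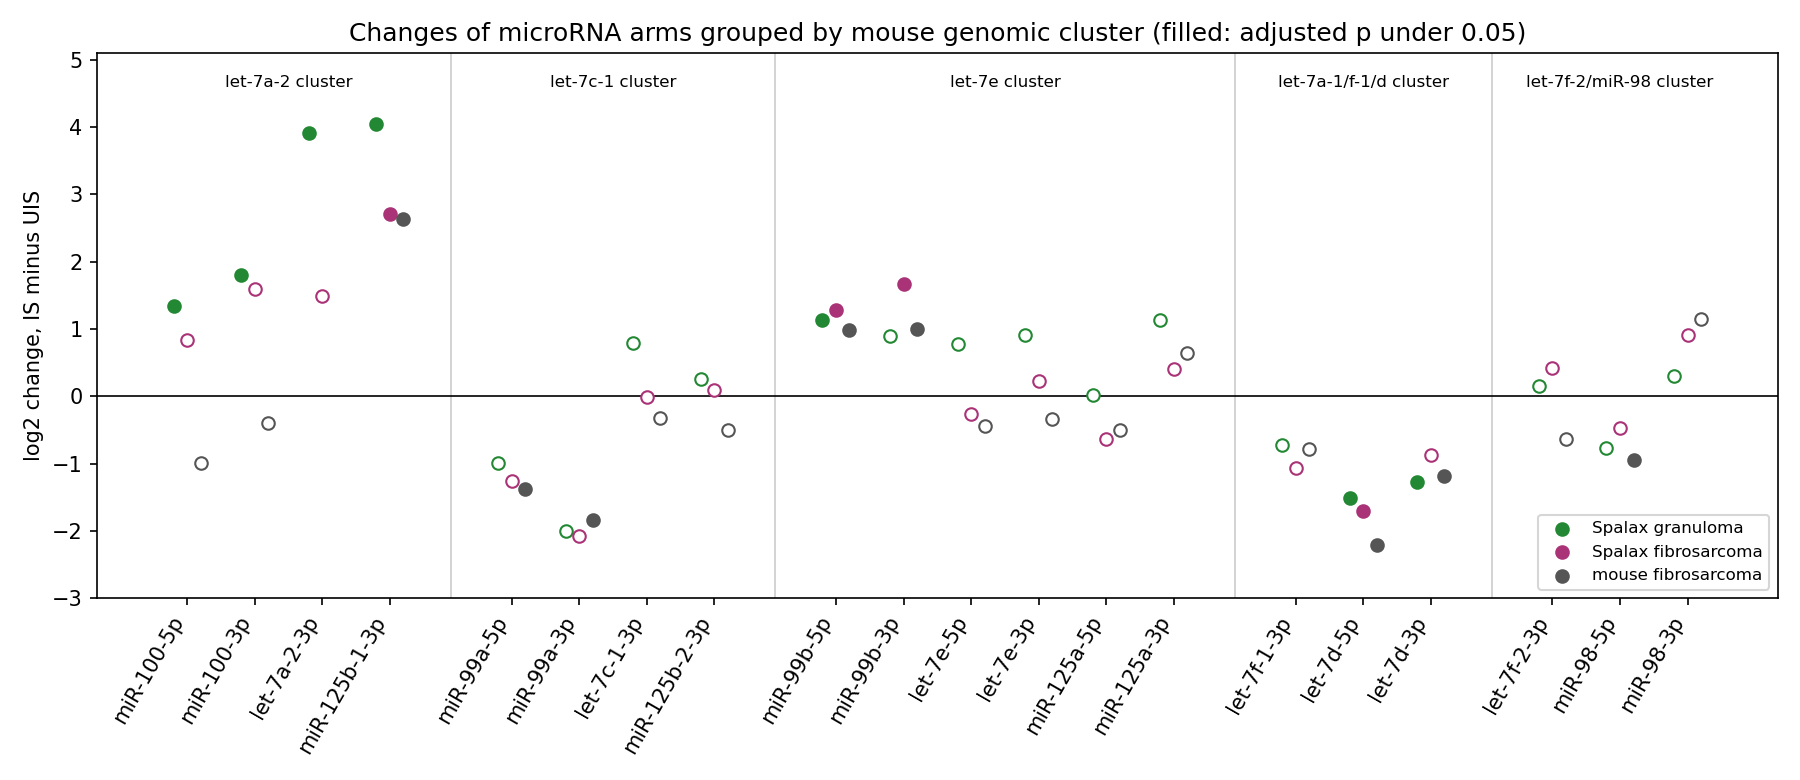
Change from UIS to IS, on the log2(normalized count + 1) scale, of microRNA arms grouped by the mouse genomic cluster they come from, with filled points past an adjusted p of 0.05. The let-7a-2 cluster lies above 0 in granuloma and in *Spalax* fibrosarcoma, up to 4.05 and 2.71 for miR-125b-1-3p. The let-7d arms lie below 0 in each comparison. The value of let-7a-2-3p rests on 1 read at the UIS.

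The neighbours of let-7a-2, let-7c-1 and let-7e were followed in the same way through a list of 11 arms of the miR-99, miR-100 and miR-125 families. In granuloma 5 of the 11 rose and none fell, in *Spalax* fibrosarcoma 3 rose and none fell, and in mice 3 rose and 2 fell, by the authors' factors. Of all microRNAs tested, 114 of 447, 68 of 447 and 176 of 547 rose, and 102, 99 and 140 fell. By read totals 9, 8 and 9 rose and none fell, against 253, 193 and 373 of all microRNAs rising. Outside the muscle list 8, 5 and 8 rose, against 208, 144 and 329 of all. By the authors' factors their median change was 0.89, 0.40 and -0.40. With the animal as a block 2, 1 and 1 rose and none fell, against 111, 61 and 141 of all microRNAs rising and 99, 90 and 86 falling.

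Beside let-7a-2, miR-125b-1-3p had the largest change. It was at 205 and 145 normalized counts at the UIS of spalax_600 and spalax_976 and at 2908 and 2836 in granuloma, a change of 4.05 (SE 0.53, adjusted p = 0.00105). It also rose in *Spalax* fibrosarcoma (2.71, SE 0.53, adjusted p = 0.00682) and in mice (2.63, SE 0.40, adjusted p = 0.00270). miR-100-5p of the same cluster went from 6463 and 6326 to 14815 and 17802 in granuloma (1.34, SE 0.47, adjusted p = 0.0460), and in mice it was lower at the IS without passing (-0.99, SE 0.36, adjusted p = 0.0512).

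Beside let-7e, miR-99b-5p rose in granuloma (1.13, SE 0.33, adjusted p = 0.0263), in *Spalax* fibrosarcoma (1.28, SE 0.33, adjusted p = 0.0204) and in mice (0.98, SE 0.26, adjusted p = 0.0165). In the tumors of spalax_2240 and spalax_2230 it was at 12272 and 17258, against 6737 and 5356 at the UIS. With the animal as a block none of these calls of miR-99b-5p held (adjusted p = 0.0697, 0.0580 and 0.0548), and in edgeR those of *Spalax* were lost (0.0565 and 0.0845). let-7e itself, from 94 bases away, passed in none of these comparisons by the authors' factors. Nor did miR-125a-5p, whose hairpin is 367 bases from let-7e, pass in granuloma (0.022) or *Spalax* fibrosarcoma (-0.63). Beside let-7c-1, miR-99a-5p was at 16598, 7311 and 12996 at the mouse UIS and at 5392, 4514 and 3646 in the tumors (-1.38, SE 0.39, adjusted p = 0.0205), a call that the block also ended (adjusted p = 0.0826). In *Spalax* its changes of -0.99 and -1.26 did not pass. Scaled to the read totals, the changes of miR-99a-5p were 0.85, 0.43 and 1.00 in granuloma, *Spalax* fibrosarcoma and mice, none past the threshold, while those of miR-99b-5p were 2.97, 2.96 and 3.36 and all passed. On that scale let-7e also rose, by 2.63, 1.43 and 1.94, and passed in each. miR-125a-5p rose there by 1.87 in granuloma and 1.05 in *Spalax* fibrosarcoma, and both passed.

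A further let-7 name, let-7j, was at 5539 to 14153 normalized counts in *Spalax* and 7315 to 11626 in mice and did not pass in any comparison by the authors' factors, while let-7k had at most 2.41 normalized counts. Outside the let-7 names, the microRNAs whose log2 level was most like the 9-member sum were miR-30c-2-3p (Pearson r = 0.93), miR-664-3p (0.91) and miR-24-1-5p (0.90) over the 8 *Spalax* libraries, and miR-139-5p (0.97), miR-191-5p (0.96) and miR-151-5p (0.95) over the 6 mouse libraries. They were the highest of 247 and 316 microRNAs compared, and the libraries share their size factors and the split between sides. Among the members, let-7d and let-7g were the most alike pair in both species, at r = 0.98 over the 8 *Spalax* libraries and 0.99 over the 6 mouse libraries. let-7a and let-7i were the least alike in *Spalax*, at -0.47.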

How the data were processed

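Small RNA of the IS and UIS was sequenced in 14 libraries, with a TruSeq small RNA kit and 1 lane. Adaptor trimming, mapping by mirDeep and a DESeq2 comparison of the sides were done by the authors. The submitters' processing notes also name GRCm38, TopHat 1.4.1, HTSeq and DESeq, without saying for which data. The deposited values are a signal per microRNA, reads divided by a size factor. In every column used, 100% of the values came out as whole multiples of a single step, within 0.01 read. The factors equal median-of-ratios factors, from the 6 mouse libraries in the mouse table and from all 14 libraries in the *Spalax* table, which repeats 5 mouse columns. Whole reads were recovered from these steps, and both copies of the repeated libraries differed by 0 reads.

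Groups came from the labels. The main test was limma 3.58.1 (R 4.3.3) with a trended spread on log2(value + 1), for microRNAs that reached a value of 10 in 2 or more *Spalax* libraries, or in 3 or more of the mouse. All 8 *Spalax* libraries shared a fit and the 6 mouse libraries had their own. P-values were adjusted by Benjamini-Hochberg over all microRNAs tested, with a threshold of 0.05. On the recovered reads, edgeR 4.0.16 with its quasi-likelihood test called 212, 163 and 311 microRNAs in granuloma, *Spalax* fibrosarcoma and mice, and DESeq2 1.42.0 called 234, 196 and 358. Other alternatives were scaling to read totals with or without muscle microRNAs, a pseudocount of 0.1, no filter, only the libraries compared, the animal as a block, and leaving out each library. The fit was also run on simulated reads with the same dispersion for every microRNA and no animal effect. That run held no shift in tissue composition, so it does not bear on the scaling of these libraries.

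The members, lists and tests were chosen with earlier results of these data known. The text names the 9 members, their passenger arms, other let-7 names, the listed cluster partners and, for each species, the 3 microRNAs with a mean of at least 100 normalized counts whose level was most like the 9-member sum. The muscle list holds arms of miR-1, miR-133a and miR-133b, miR-206, and the myosin-encoded miR-208b and miR-499. The sides of 1 animal are paired by its number. Deviations of the paired sides from their group means had correlations of 0.0933 (granuloma), 0.00405 (*Spalax* fibrosarcoma) and 0.0426 (mouse). Replicates of a group differed by more than sampling noise (lowest chi-square over its degrees of freedom 327.1). The interval and the depth of 3 reads, 2.15e-05% to 0.000147% of a library, cover counting error only. Sequences and positions are from GENCODE M21 (GRCm38). Mature ends were set at 22 bases from the start, and *Spalax* sequences were not used here.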

Additional observations from a re-analysis of the deposited data

Results flagged for a closer look

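let-7c and let-7e moved in opposite directions within animals of different conditions by the authors' factors. How many of all microRNAs did so was not counted, so it cannot be called particular to these members. In limma neither rise passed in granuloma (adjusted p = 0.422 and 0.0899). In mice the fall of let-7c passed (adjusted p = 0.0169) and that of let-7e did not (0.306). let-7c was higher at the IS in both granuloma-bearing *Spalax*, by 0.57 and 0.33 on the log2 scale, and lower in both paired mice, with changes of -0.72 and -0.78, a gap of 1.21 between the means. let-7e was higher in both granulomas, by 0.52 and 1.05, and lower in both paired mouse fibrosarcomas, with changes of -0.56 and -0.39, a gap of 1.26. These differences were not tested, since the mouse values used here were scaled apart from those of *Spalax*. The 5 mouse libraries also deposited on the *Spalax* scale were not used for this. Species, tumor type, time and dose cannot be told apart on either scale. Scaled to the read totals, the fitted changes of let-7c were 2.30 in granuloma and 1.43 in mice and those of let-7e were 2.63 and 1.94, so the directions were then the same.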

How the results depend on the processing

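The scaling decided the direction of most members. With the read total, 7, 5 and 4 members passed in granuloma, *Spalax* fibrosarcoma and mice, all higher at the IS. Of all microRNAs tested, 67.8%, 52.3% and 73.9% then passed. Outside the muscle list the numbers were 3 higher, 0 and 2 higher, against 60.9%, 45.2% and 67.6% of all microRNAs passing. With the read total, the log2 changes that turned were, in granuloma, 1.82 (let-7a), 1.42 (let-7b), 0.33 (let-7d), 0.94 (let-7f), 1.82 (let-7i) and 1.07 (miR-98). In *Spalax* fibrosarcoma they were 0.52 (let-7a), 1.33 (let-7b), 1.59 (let-7c), 1.43 (let-7e), 0.27 (let-7f), 0.011 (let-7g), 1.62 (let-7i) and 1.22 (miR-98). In mice they were 0.73, 1.10, 1.43, 0.17, 1.94, 0.64, 0.74, 1.92 and 1.44 for let-7a to let-7g, let-7i and miR-98. Outside the muscle list, the turned changes were 1.17 (let-7a), 0.77 (let-7b), 0.29 (let-7f), 1.17 (let-7i) and 0.42 (miR-98) in granuloma, 0.69 (let-7b), 0.95 (let-7c), 0.79 (let-7e), 0.98 (let-7i) and 0.58 (miR-98) in *Spalax* fibrosarcoma, and 0.28, 0.64, 0.97, 1.49, 0.18, 0.28, 1.46 and 0.98 for let-7a, let-7b, let-7c, let-7e, let-7f, let-7g, let-7i and miR-98 in mice. The difference of the *Spalax* changes for let-7b became 0.084 with the read total and 0.075 outside the muscle list. Changes near 0 that did not pass also turned with edgeR (0.027 for let-7a and 0.020 for let-7i in granuloma, 0.063 for the let-7b difference) and DESeq2 (0.034 for let-7a and 0.036 for let-7i in granuloma, 0.16 for let-7c and 0.22 for let-7i in fibrosarcoma, -0.18 for the let-7i difference).

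With the animal as a replicate block 4 members fell in mice, and the member counts of the other comparisons stayed within 1.5 times. The cluster partners called went from 5, 3 and 5 to 2, 1 and 1 in granuloma, *Spalax* fibrosarcoma and mice, and the passenger arms from 2, 0 and 1 to 1, 0 and 0. The share of all microRNAs called went from 48.3%, 37.4% and 57.8% to 47.0%, 33.8% and 41.5%. Leaving out each library gave 1 to 3 members called in granuloma, 0 to 4 in *Spalax* fibrosarcoma, 5 to 7 in mice and 0 to 1 between the injected sides, where let-7c passed without spalax_2230 (adjusted p = 0.0384) and let-7a without spalax_2240 (adjusted p = 0.0411). Changes that turned ranged from -0.26 to 0.21 (let-7a) and -0.35 to 0.31 (let-7i) in granuloma, and from -0.77 to 0.064 (let-7b), -0.79 to 0.60 (let-7c) and -0.83 to 0.69 (let-7i) in fibrosarcoma. Their differences ranged from -0.49 to 0.34 (let-7b), -0.15 to 1.24 (let-7c), -0.077 to 0.47 (let-7d) and -0.71 to 0.81 (let-7i). Over the members' log2 changes, 66 of the alternatives turned the direction and a further 40 lost the call, 4 gained it and 358 did neither. With those that also turned, 56 lost a call. Calls gained by members that also turned are counted only among the 66. In granuloma by read totals these were let-7a, let-7b, let-7i and miR-98. All 126 shares moved by less than 1 SD when a library was left out. In groups of 2 or 3 libraries this must happen with any values, so it does not show that the shares are firm. The causes were not tested.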
